A study of Mus musculus with 117 samples.

Results

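BAF is the mammalian form of the SWI/SNF chromatin remodeler, a large protein complex that uses ATP to slide and evict nucleosomes at enhancers and promoters. The 10 genes described here encode its subunits Smarca2, Smarca4, Smarcc1, Smarcc2, Smarcd1, Smarcd2, Smarcd3, Arid1a, Arid1b and Actl6a, and were chosen by name from the 26301 genes of the RNA count table of a mouse study of 117 samples. All 10 were found in the table, and all 10 passed the filter on low counts in every comparison. They were followed through 28 RNA libraries in 10 groups, in which Ubc9, the only enzyme that transfers the small protein SUMO to its targets, was or was not depleted. The study asked how SUMO acts on the identity of somatic and of pluripotent cells.

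The cells were embryonic fibroblasts (MEF, E13.5, passage 1) with the hairpin shUbc9 (2 libraries) or the control hairpin shCtrl (3). The same kind of fibroblast, expressing the reprogramming factors OKSM (Oct4, Klf4, Sox2 and Myc), was taken after 4 days (D4, 3 shUbc9 and 3 shCtrl libraries) and after 7 days (D7, 3 and 3). Induced pluripotent cells made from such E13.5 fibroblasts (iPS, passage not given) came with shUbc9 (3) or shCtrl (2). Embryonic stem cells (ES, passages 15 to 20) were treated with small interfering RNA, siUbc9 (3) or siCtrl (3), so ES cells differ from the other groups in the way Ubc9 was depleted as well as in cell source. D4 and D7 cultures are mixtures at different points of reprogramming, and in such bulk RNA fewer cells of a type and less RNA per cell cannot be told apart. The labels do not say whether replicates were separate cultures or animals, or how many clones the iPS libraries represent, so a p-value here reflects nothing beyond library-to-library spread, which may be technical.

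A BAF complex carries 1 of a pair of ATPases, Smarca4 (also called BRG1) or Smarca2 (BRM), which supply the motor. Smarcc1 (BAF155) and Smarcc2 (BAF170) form the scaffold on which the complex is built, and Smarcd1, Smarcd2 and Smarcd3 (the BAF60 family) link it to transcription factors. Arid1a and Arid1b (BAF250A and BAF250B) are mutually exclusive large subunits that define canonical BAF, and Actl6a (BAF53A) is an actin-related protein of dividing cells. Mouse ES cells are known for a particular assembly, esBAF, built with Smarca4, Smarcc1, Smarcd1 and Arid1a and with little Smarca2 or Smarcc2, and fibroblasts for one that also holds Smarca2 and Smarcc2.

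Because members of the family moved in opposite directions between cell states, the promoters of the exchanged pairs are shown, with that of Actl6a, the member that rose on Ubc9 depletion during reprogramming. RefSeq promoter windows of build GRCm38.p6, from 250 bases before to 50 after a start site, were matched by symbol for all 10 genes, in 11 windows, of which Arid1a has 2. Capitals mark matches on either strand to the motifs searched, the GC box GGGCGG, the CCAAT box CCAAT, the E box CACGTG, the ETS motif CCGGAAGT and the AP-1 motif TGACTCA. The windows below are Smarca4 at chr9:21615919-21616218, Smarca2 at chr19:26604910-26605209, Smarcc1 at chr9:110131774-110132073, Smarcc2 at chr10:128458986-128459285 and Actl6a at chr3:32708296-32708595, all on the plus strand.
Smarca4: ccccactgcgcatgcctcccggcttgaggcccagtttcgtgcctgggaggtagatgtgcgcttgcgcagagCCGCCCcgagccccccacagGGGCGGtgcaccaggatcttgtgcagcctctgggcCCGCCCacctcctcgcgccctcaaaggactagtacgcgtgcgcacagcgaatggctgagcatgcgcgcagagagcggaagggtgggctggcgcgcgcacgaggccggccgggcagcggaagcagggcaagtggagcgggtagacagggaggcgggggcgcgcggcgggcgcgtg
Smarca2: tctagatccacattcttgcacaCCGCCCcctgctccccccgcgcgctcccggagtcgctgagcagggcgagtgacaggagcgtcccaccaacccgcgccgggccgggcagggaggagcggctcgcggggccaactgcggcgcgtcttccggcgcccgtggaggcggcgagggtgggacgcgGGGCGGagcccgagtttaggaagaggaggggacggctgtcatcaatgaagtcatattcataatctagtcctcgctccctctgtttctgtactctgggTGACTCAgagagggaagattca
Smarcc1: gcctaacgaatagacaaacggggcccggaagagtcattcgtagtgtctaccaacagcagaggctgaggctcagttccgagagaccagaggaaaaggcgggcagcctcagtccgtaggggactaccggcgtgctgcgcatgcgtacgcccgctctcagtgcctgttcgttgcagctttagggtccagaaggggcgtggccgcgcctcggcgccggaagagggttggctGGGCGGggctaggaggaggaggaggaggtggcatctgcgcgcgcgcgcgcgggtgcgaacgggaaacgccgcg
Smarcc2: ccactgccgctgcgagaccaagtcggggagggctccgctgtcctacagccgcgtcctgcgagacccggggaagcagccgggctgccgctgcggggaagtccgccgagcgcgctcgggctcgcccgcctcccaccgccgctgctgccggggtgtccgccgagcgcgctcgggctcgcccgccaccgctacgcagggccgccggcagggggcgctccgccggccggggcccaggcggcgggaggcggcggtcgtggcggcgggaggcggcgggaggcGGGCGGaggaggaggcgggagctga
Actl6a: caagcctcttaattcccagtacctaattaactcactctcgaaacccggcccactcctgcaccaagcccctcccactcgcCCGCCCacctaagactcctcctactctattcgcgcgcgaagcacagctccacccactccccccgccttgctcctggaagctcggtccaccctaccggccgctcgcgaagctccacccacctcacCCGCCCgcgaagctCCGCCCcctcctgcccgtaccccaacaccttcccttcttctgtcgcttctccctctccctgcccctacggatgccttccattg

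All 11 member windows held at least 1 GC box, against 35.7% of the 32851 windows of the table. Of the 8701 windows with at least 20 CpG, 80.9% held one, and 10 of the 11 member windows were of that kind. CpG counts ran from 4 in Smarcd2 to 48 in Smarcc2, against a median of 7 over all windows. Smarca2 was the one member whose window held TGACTCA, 5.2% of all windows having it, and its match did not overlap its GC boxes. None of the other 3 motifs, held by 37.4% (CCAAT box), 7.15% (E box) and 3.89% (ETS) of all windows, occurred in a member window, which says only that those letters are not in these stretches. The windows of Smarca2 and Smarca4 held 29 and 33 CpG, and those of Smarcd2, Smarcd3 and Smarcd1 4, 40 and 35. The other pairs were Smarcc2 and Smarcc1 with 48 and 33, and Arid1b with 42 beside Arid1a with 22 and 36.

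Counts in genes ranged from 11365908 to 58779915 per library, and repeat families took 7.22% to 24.8% of all counts. Levels are given below as CPM (gene counts relative to the size of the library) scaled by TMM over all 28 libraries, and are not corrected for transcript length, so they are compared between groups and never between genes. Replicate 2 of the libraries labelled iPS shUbc9 had both the fewest gene counts and the smallest share of repeats. The 8 fibroblast markers examined summed to 43.6 to 56.7 CPM in ES siCtrl and 20088 to 23933 CPM in MEF shCtrl. The 8 pluripotency markers summed to 3251 to 3489 CPM in ES siCtrl and 0.329 to 0.636 CPM in MEF shCtrl, where 4 or 5 of them had no counts.

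**Figure D1:**
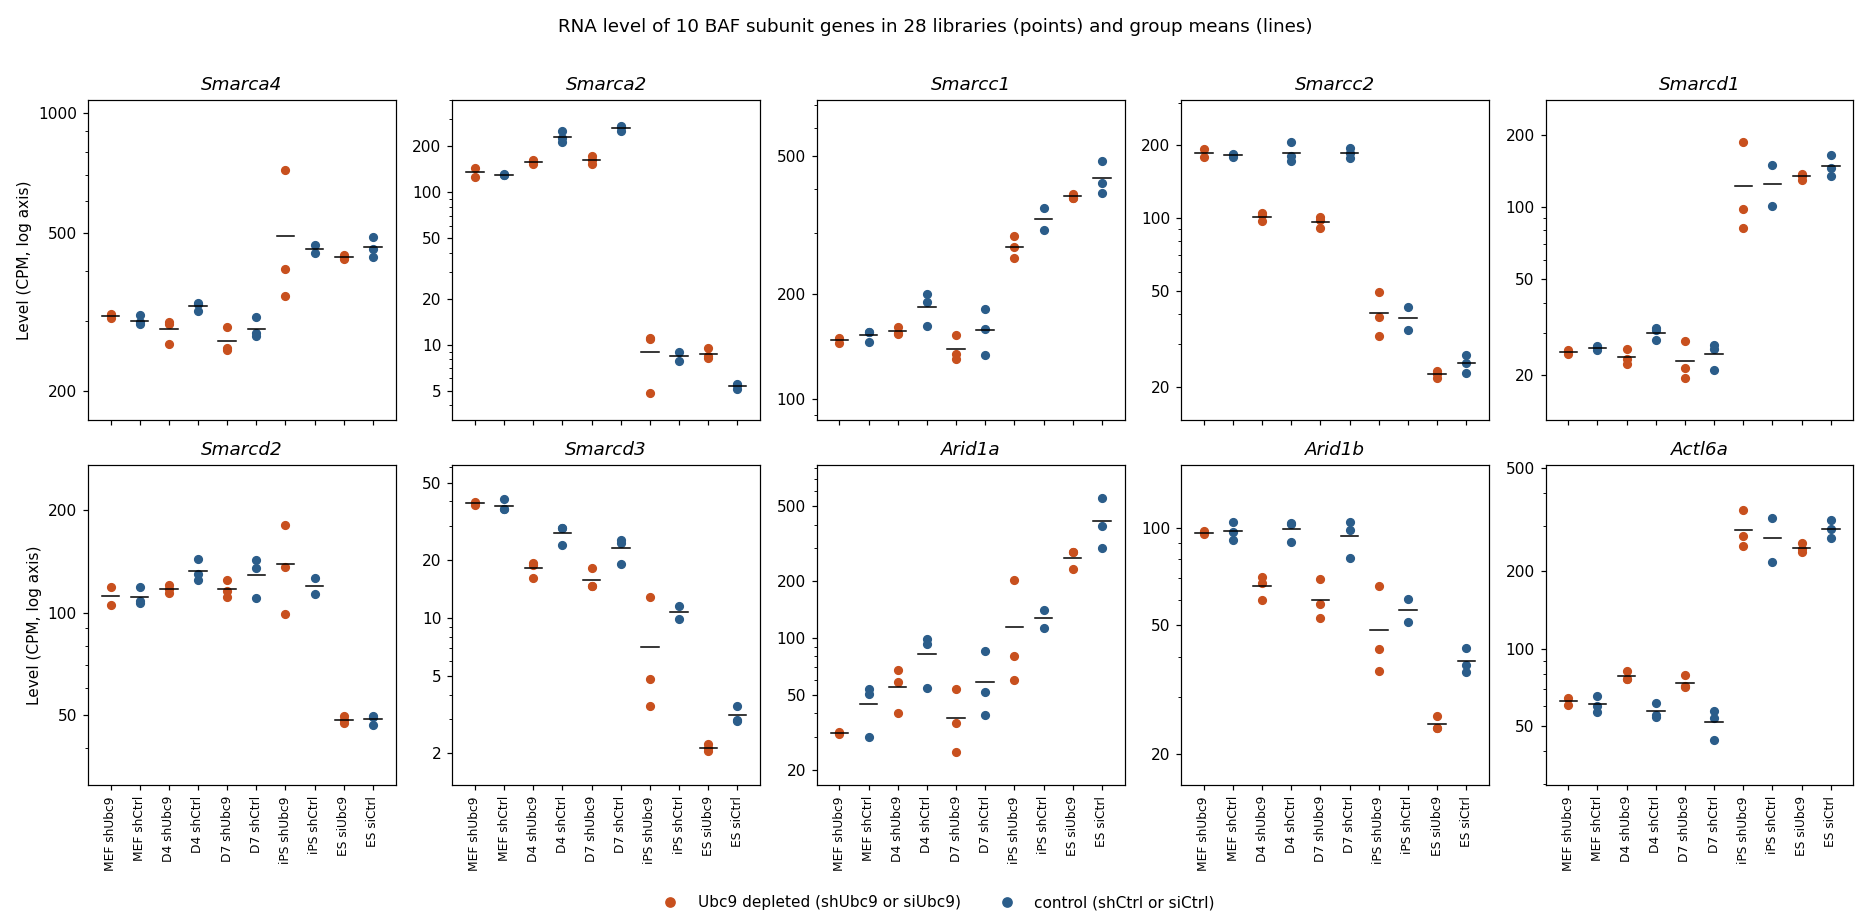
Level of each gene (CPM, log axis) in every library (points) with the group mean (line), 1 panel per gene, groups from MEF to ES cells with the Ubc9-depleted group left of its control. The group mean of Smarca2 is lowest in ES siCtrl, and those of Smarcc2, Smarcd3 and Arid1b are lowest in ES siUbc9. Group means of Arid1a, Smarcd1, Smarcc1 and Actl6a are highest in ES siCtrl. For Smarca2, Smarcd1 and Actl6a, iPS libraries overlap those of ES siCtrl.

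ES siCtrl cells differed from MEF shCtrl in every member of the family. Arid1a, Smarcd1, Actl6a, Smarcc1 and Smarca4 were higher in ES cells and Smarca2, Smarcd3, Smarcc2, Arid1b and Smarcd2 were lower, 5 in each direction. This is 10 of 10 called, where a gene is called at an adjusted p under 0.05 (edgeR quasi-likelihood test, Benjamini-Hochberg over all genes tested), against a background of 90.5% of the 18149 genes tested, so the count itself does not set the family apart. Over all genes 47.7% were called higher and 42.8% lower. The libraries of all 10 members did not overlap, as for 90.9% of all genes, each comparison being scaled on its own for such counts. Across the genes tested the median signed log2 fold change was 0.13, which does not measure the typical size of a change.

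Among the ATPases, Smarca2 stood at 5.13, 5.51 and 5.46 CPM in ES siCtrl, against 129, 129 and 131 CPM in MEF shCtrl. Its log2 fold change was -4.61 ± 0.07 (SE), 24.3-fold lower in ES cells (adjusted p = 2.73e-13, n = 3 each). Smarca4 changed little by comparison, with 435, 489 and 455 CPM in ES siCtrl, against 311, 297 and 294 CPM in MEF shCtrl, a log2 fold change of 0.60 ± 0.06 (adjusted p = 3.45e-06). The libraries of neither ATPase gene overlapped between the groups. The pair therefore parted through the near loss of Smarca2 RNA more than through a gain of Smarca4.

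The scaffold genes also went opposite ways. Smarcc1 was at 391, 482 and 418 CPM in ES siCtrl, against 156, 146 and 156 CPM in MEF shCtrl, 2.79-fold higher (log2 1.48 ± 0.08, adjusted p = 1.06e-08). Smarcc2 was at 22.9, 27.1 and 25.0 CPM in ES siCtrl, against 183, 184 and 179 CPM in MEF shCtrl, 7.34-fold lower (log2 -2.88 ± 0.07, adjusted p = 9.70e-12). Both genes kept their groups well apart. In the Smarcd family, Smarcd1 was 5.64-fold higher in ES cells, at 134.5 to 165 CPM in ES siCtrl against 25.3 to 26.5 CPM in MEF shCtrl. Smarcd3, the form best known from heart and other mesodermal tissue, was 12.2-fold lower, at 2.94 to 3.51 CPM in ES siCtrl against 36.3 to 41.3 CPM in MEF shCtrl. Smarcd2, known for its part in blood cell development, was 2.31-fold lower, at 46.7 to 49.7 CPM in ES siCtrl against 106 to 119 CPM in MEF shCtrl. The 3 genes of 1 subunit position thus spread over both directions.

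Arid1a was at 300.1, 555 and 394 CPM in ES siCtrl, against 54.0, 30.0 and 50.4 CPM in MEF shCtrl, 9.19-fold higher (log2 3.20 ± 0.26, adjusted p = 3.06e-07). Its libraries spread more within each group than those of any other member. This is taken up below with the share of repeat counts, which also differed between these 2 groups. Arid1b was 2.55-fold lower, at 35.9 to 42.6 CPM in ES siCtrl against 92.1 to 104 CPM in MEF shCtrl. Actl6a was 4.74-fold higher, at 314, 269 and 292 CPM in ES siCtrl, against 57.1, 65.8 and 59.9 CPM in MEF shCtrl.

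A period of 4 days of OKSM under the control hairpin left the family far from its ES levels, and 2 of the members called, Smarca2 and Smarcd2, moved away from them. Of the 10 members, 6 were higher and 1 was lower in D4 shCtrl than in MEF shCtrl, with 66.7% of all genes tested called, 33.3% higher and 33.5% lower. The libraries of 5 members did not overlap, against 70.5% of all genes; on the levels printed here those of Smarca4 and Arid1a were apart as well, 7 in all. Smarca2 rose to 226, 213 and 250.4 CPM in D4 shCtrl, against 129, 129 and 131 CPM in MEF shCtrl (log2 0.88 ± 0.07, adjusted p = 3.15e-06), although it is nearly lost in ES cells. Arid1a was higher in D4 shCtrl (93.2, 54.2 and 99.0 CPM against 54.0, 30.0 and 50.4 CPM in MEF shCtrl, log2 0.92 ± 0.27, adjusted p = 0.0115), with the lowest D4 value close to the highest MEF value. Smarcc1, Smarcd2, Smarcd1 and Smarca4 rose by smaller amounts, with log2 fold changes of 0.32, 0.30, 0.25 and 0.17. The calls of Smarca4, Smarcd1 and Smarcc1 were lost on leaving out D4 shCtrl replicate 1 (adjusted p = 0.105, 0.0713 and 0.0519), which left 4 called members and 10399 called genes instead of 11152. Those of Smarca4 and Smarcd1 were also lost without MEF shCtrl replicate 2 or D4 shCtrl replicate 3, and that of Smarca4 without MEF shCtrl replicate 3. Smarcd3 fell, at 23.8 to 29.2 CPM in D4 shCtrl against 36.3 to 41.3 CPM in MEF shCtrl (log2 -0.43 ± 0.08, adjusted p = 0.000736). Smarcc2, Arid1b and Actl6a, with log2 fold changes of 0.08, 0.06 and -0.05, did not pass the test, although Smarcc2 did without D4 shCtrl replicate 2 (adjusted p = 0.0302).

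From D4 to D7 under the control hairpin no member was called, where 18.2% of all genes tested were, 10.6% higher and 7.65% lower (edgeR, and 0 members by DESeq2). An unadjusted edgeR p under 0.05 was found for 4 members, and for 5408 of the 16792 genes tested. Log2 fold changes of the members ran from -0.45 in Arid1a to 0.22 in Smarca2. Smarca2 was at 269, 250.3 and 267 CPM in D7 shCtrl and at 226, 213 and 250.4 CPM in D4 shCtrl. Its highest group mean of the whole series, 262 CPM, was that of D7 shCtrl, whose libraries overlapped those of D4 shCtrl.

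In iPS shCtrl cells 7 of the 10 members had a mean log2 CPM nearer that of ES siCtrl than that of D7 shCtrl, all but Arid1a, Smarcd2 and Smarcd3. How many of all genes were nearer ES siCtrl was not counted, so this number does not set the family apart. Against D7 shCtrl, 5 members were higher and 4 lower, with 73.8% of all genes tested called, 36.2% higher and 37.6% lower. The libraries of these 9 did not overlap, as for 83.0% of all genes. Smarca2 stood at 8.98 and 7.86 CPM in iPS shCtrl, against 269, 250.3 and 267 CPM in D7 shCtrl, 33.4-fold lower (log2 -5.06 ± 0.16, adjusted p = 3.93e-06). Smarcc2 was 5.16-fold lower, at 43.0 and 34.2 CPM in iPS shCtrl against 176 to 194 CPM in D7 shCtrl. Smarcd3 and Arid1b were 2.28-fold and 1.82-fold lower. Actl6a was 4.88-fold higher, at 217 and 320.3 CPM in iPS shCtrl against 53.7, 57.3 and 44.3 CPM in D7 shCtrl, and Smarcd1 4.81-fold higher. Smarcc1, Arid1a and Smarca4 were 1.94-fold, 1.998-fold and 1.48-fold higher. The call of Arid1a was lost without iPS shCtrl replicate 1, D7 shCtrl replicate 1 or D7 shCtrl replicate 2 (adjusted p = 0.0935, 0.0907 and 0.0644). Smarcd2 was at 114 and 126 CPM in iPS shCtrl, against 110 to 143 CPM in D7 shCtrl, and did not pass the test.

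The 2 pluripotent states were not identical in this family. Between iPS shCtrl and ES siCtrl, 5 members were higher and 1 lower in iPS cells, against 53.3% of all genes tested, 27.3% higher and 26.0% lower. The libraries of 7 members did not overlap, against 71.2% of all genes. Smarcd3 was 3.36-fold higher at 9.87 and 11.5 CPM in iPS shCtrl, against 2.96, 3.51 and 2.94 CPM in ES siCtrl (adjusted p = 0.000645). Smarcd2 was 2.44-fold higher at 114 and 126 CPM in iPS shCtrl, against 49.7, 46.7 and 49.4 CPM in ES siCtrl (adjusted p = 0.00029). Arid1a was 3.32-fold lower at 142 and 114 CPM in iPS shCtrl, against 300.1, 555 and 394 CPM in ES siCtrl (adjusted p = 0.00301). Smarca2, Smarcc2 and Arid1b were 1.54-fold, 1.52-fold and 1.42-fold higher. These 3 calls were lost without ES siCtrl replicate 1 (adjusted p = 0.0854, 0.0594 and 0.0773) and without ES siCtrl replicate 3 (0.0993, 0.0609 and 0.0907), where 3 members remained called, and that of Smarca2 also without ES siCtrl replicate 2 (0.0577). Over all genes the fits without ES siCtrl replicate 1, 2 or 3 called 7147, 7182 and 6767, instead of 9655. Smarcc1, Smarcd1, Actl6a and Smarca4 did not pass the test, and of these Smarcc1 had the smallest adjusted p, 0.0516. DESeq2 and edgeR with RLE factors called it lower in iPS cells (adjusted p = 0.0393 and 0.0496). Without iPS shCtrl replicate 3, Smarcc1, Smarcd1 and Actl6a were called lower in iPS cells (adjusted p = 0.019, 0.0125 and 0.00646). Fibroblast markers summed to 409.6 to 1146 CPM in iPS shCtrl and 43.6 to 56.7 CPM in ES siCtrl, and the part of the cells that carry them in these differences was not tested.

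In fibroblasts without reprogramming factors, Ubc9 depletion left no member called, where 6.04% of all genes tested were, 3.83% higher and 2.21% lower (984 of 16287 by edgeR, and 0 members by DESeq2). The libraries of every member overlapped, whereas those of 38.2% of all genes did not. Apart from Arid1a, no member's log2 fold change was larger than 0.07 in size. Smarca2 stood at 126 and 144 CPM in MEF shUbc9, against 129, 129 and 131 CPM in MEF shCtrl, and Smarcc2 at 179 and 193 CPM in MEF shUbc9, against 183, 184 and 179 CPM in MEF shCtrl. Arid1a was at 31.8 and 31.1 CPM in MEF shUbc9, against 54.0, 30.0 and 50.4 CPM in MEF shCtrl (log2 -0.51 ± 0.22, unadjusted p = 0.0392 and adjusted p = 0.214). It was called, at a log2 fold change of -0.75, once MEF shCtrl replicate 2 was left out (adjusted p = 4.00e-05), the library that lay with the depleted ones.

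**Figure D2:**
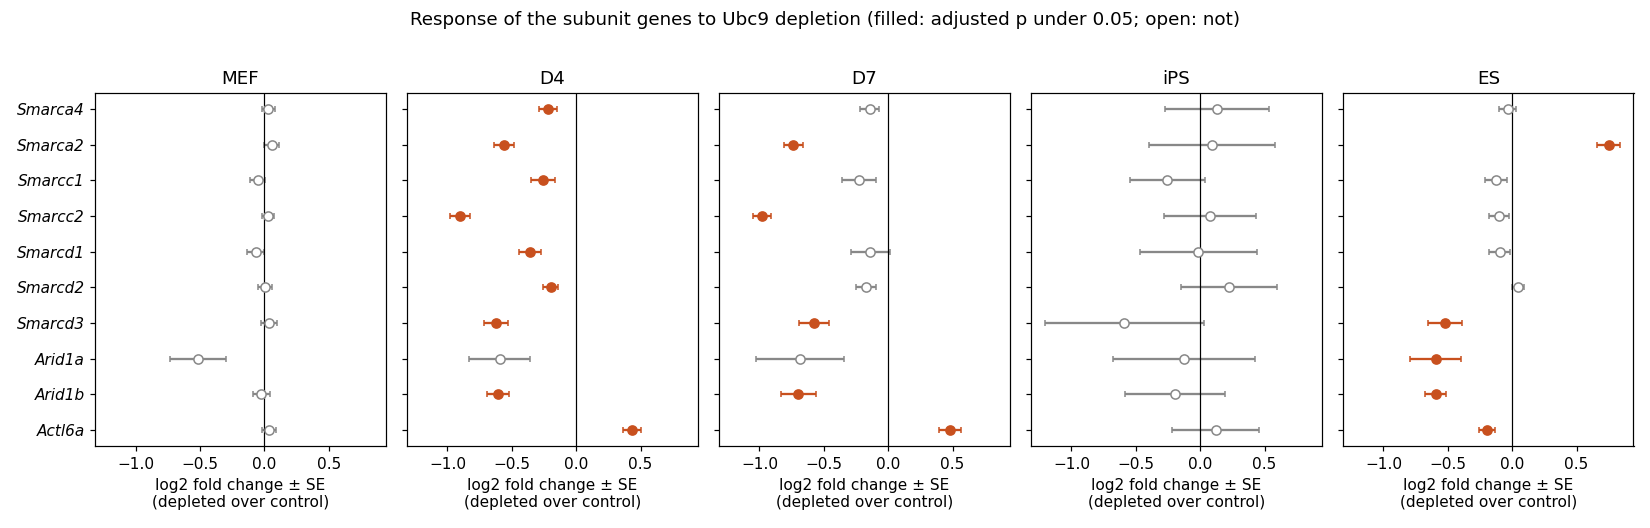
Log2 fold change of each gene on Ubc9 depletion over control (points, with 1 SE either side) in the 5 states from MEF to ES cells, filled where the adjusted p is under 0.05 and open where it is not. At D4 and D7 Smarcc2, Smarca2, Smarcd3 and Arid1b lie left of 0 and Actl6a right of it; in ES cells Smarca2 lies to the right.

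After 4 days of OKSM the response of the family was broad. Of the 10 members, 8 fell and 1 rose in D4 shUbc9 relative to D4 shCtrl, against a background of 53.2% of all genes tested called, 26.1% lower and 27.2% higher. The libraries of the 9 did not overlap, against 61.9% of all genes. The median log2 fold change of the members was -0.46, against -0.01 over all genes tested. Smarcc2 fell most, to 102, 104 and 96.8 CPM in D4 shUbc9, against 179.9, 173 and 206 CPM in D4 shCtrl (log2 -0.90 ± 0.08, 1.87-fold lower, adjusted p = 2.74e-05). Smarca2 fell to 159, 163 and 153 CPM in D4 shUbc9, against 226, 213 and 250.4 CPM in D4 shCtrl (log2 -0.56 ± 0.08, adjusted p = 0.000298). The libraries of both genes stood clear of each other.

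Smarcd3 was at 19.2, 18.9 and 16.1 CPM in D4 shUbc9, against 23.8, 29.0 and 29.2 CPM in D4 shCtrl (log2 -0.62 ± 0.09, adjusted p = 0.000506). Arid1b was at 67.5, 70.8 and 59.7 CPM in D4 shUbc9, against 103, 90.3 and 104 CPM in D4 shCtrl (log2 -0.61 ± 0.09, adjusted p = 0.000417). Smarcd1 was at 23.2, 25.6 and 22.3 CPM in D4 shUbc9, against 31.3, 27.95 and 30.9 CPM in D4 shCtrl (log2 -0.36 ± 0.08, adjusted p = 0.00603). All 3 fell with no overlap between libraries. Actl6a alone rose, to 76.3, 76.4 and 82.0 CPM in D4 shUbc9, against 54.3, 61.6 and 55.5 CPM in D4 shCtrl (log2 0.43 ± 0.07, 1.35-fold higher, adjusted p = 0.000628).

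The remaining falls at D4 were small. Smarcc1, Smarca4 and Smarcd2 had log2 fold changes of -0.26, -0.22 and -0.20 (adjusted p = 0.0405, 0.0268 and 0.0184). Smarcc1 lost its call in all fits that left out 1 library except the one without D4 shCtrl replicate 2. Smarca4 lost it without D4 shCtrl replicate 1 or 3 or D4 shUbc9 replicate 1 or 3, and Smarcd2 without D4 shCtrl replicate 2 or D4 shUbc9 replicate 1 or 2. All 3 lost it when libraries were scaled by size alone (adjusted p = 0.0971, 0.172 and 0.239). Arid1a, at 58.3, 67.7 and 40.0 CPM in D4 shUbc9 against 93.2, 54.2 and 99.0 CPM in D4 shCtrl, did not pass (log2 -0.60 ± 0.24, adjusted p = 0.0613). It was called without D4 shCtrl replicate 2 or D4 shUbc9 replicate 2 (adjusted p = 0.00421 and 0.0233).

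At D7, Smarcc2, Smarca2, Arid1b and Smarcd3 fell and Actl6a rose. That is 4 lower and 1 higher of the 10 members in D7 shUbc9, against 53.6% of all genes tested called, 26.3% lower and 27.3% higher. The libraries of these 5 did not overlap, against 61.1% of all genes. With libraries scaled by size alone the same 5 members were called, while 71.5% of all called genes were higher instead of 50.9%, around a median of 0.21 (log2). Smarcc2 was at 98.4, 101 and 90.6 CPM in D7 shUbc9, against 194, 176 and 186 CPM in D7 shCtrl (log2 -0.98 ± 0.07, 1.97-fold lower, adjusted p = 1.23e-05). Smarca2 was at 162, 172 and 152 CPM in D7 shUbc9, against 269, 250.3 and 267 CPM in D7 shCtrl (log2 -0.74 ± 0.07, 1.67-fold lower, adjusted p = 6.88e-05). Both ranges were narrow and far apart.

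Arid1b fell to 52.8, 69.4 and 58.1 CPM in D7 shUbc9, against 98.4, 81.0 and 105 CPM in D7 shCtrl (log2 -0.70 ± 0.14, adjusted p = 0.00261). Smarcd3 fell to 14.7, 18.1 and 14.6 CPM in D7 shUbc9, against 25.2, 24.5 and 19.0 CPM in D7 shCtrl (log2 -0.57 ± 0.12, adjusted p = 0.00327), with less than 1 CPM between the groups. Actl6a rose to 79.0, 71.8 and 71.03 CPM in D7 shUbc9, against 53.7, 57.3 and 44.3 CPM in D7 shCtrl (log2 0.48 ± 0.08, adjusted p = 0.00155). Smarca4, Smarcc1, Smarcd1 and Smarcd2 had log2 fold changes between -0.14 and -0.23 and overlapping libraries, and did not pass. Smarcc1 was called without D7 shCtrl replicate 2 (adjusted p = 0.0204) and Smarcd2 without D7 shCtrl replicate 3 (adjusted p = 0.0266). Arid1a, at 24.9, 53.5 and 35.4 CPM in D7 shUbc9 against 52.1, 39.2 and 85.5 CPM in D7 shCtrl, did not pass either (log2 -0.69 ± 0.34, adjusted p = 0.117), but was called without D7 shCtrl replicate 2 (adjusted p = 0.0298) or D7 shUbc9 replicate 2 (adjusted p = 0.0376).

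Set against the difference between ES siCtrl and MEF shCtrl, which shares no library with the depletion comparisons at D4 and D7, all 5 members that were lower in ES cells fell at D4 and 4 of the 5 fell at D7. Of the 5 members that were higher in ES cells, 1 rose and 3 fell at D4, and 1 rose and none fell at D7. How often all genes lower or higher in ES cells moved likewise was not counted, so these numbers do not set the family apart. Actl6a was the single member that moved toward its ES level by rising. Markers of cell states moved with these changes. The 8 fibroblast markers summed to 17441 to 19419 CPM in D4 shUbc9 and 25042 to 34477 CPM in D4 shCtrl, and all 8 fell. At D7 they summed to 15888 to 19905 CPM in D7 shUbc9 and 34136 to 44439 CPM in D7 shCtrl, with 6 of 8 lower and 1 higher. The 6 epidermal markers summed to 284 to 290.4 CPM in D4 shUbc9 and 118 to 129.8 CPM in D4 shCtrl, with 4 of 6 higher. At D7 they summed to 916 to 969 CPM in D7 shUbc9 and 179.8 to 248 CPM in D7 shCtrl, with 5 higher and Trp63 lower. The 5 neural markers summed to 235 to 249.8 CPM in D4 shUbc9 and 108 to 121 CPM in D4 shCtrl, and of the 5 tested 2 were higher and 2 lower. At D7 they summed to 161 to 168 CPM in D7 shUbc9 and 80.7 to 94.5 CPM in D7 shCtrl, with 3 of 4 tested higher and 1 lower. The 8 pluripotency markers summed to 62.7 to 75.4 CPM in D7 shUbc9 and 5.596 to 21.0 CPM in D7 shCtrl, small beside the 3251 CPM or more of ES siCtrl. The 6 macrophage markers summed to 82.1 to 84.4 CPM in D4 shUbc9 and 46.8 to 51.0 CPM in D4 shCtrl. Their part in the changes of the BAF genes was not tested.

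In the iPS libraries no gene at all was called by edgeR, a background of 0% of 17294 genes, 246 of which had an unadjusted p under 0.05, none of them a member. DESeq2 called 7 genes and no member. The libraries labelled iPS shUbc9 spread widely, with Smarca4 at 346, 721 and 404 CPM, against 465 and 444 CPM in iPS shCtrl, and Smarcd3 at 4.82, 12.8 and 3.51 CPM, against 9.87 and 11.5 CPM in iPS shCtrl. The extreme value in both cases belonged to replicate 2, the shallow library. Left out, it still gave no called member. The standard errors of the members' log2 fold changes were 0.29 to 0.62, against 0.06 to 0.24 at D4.

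In ES cells Smarca2 went the other way. It stood at 8.44, 9.49 and 8.19 CPM in ES siUbc9, against 5.13, 5.51 and 5.46 CPM in ES siCtrl (log2 0.75 ± 0.09, 1.68-fold higher, adjusted p = 0.00019), from 140 or more counts in each library. Of the 10 members it alone rose, and 4 fell, against 39.1% of all genes tested called, 21.3% higher and 17.8% lower. The libraries of 4 members did not overlap, against 51.1% of all genes; on the levels printed here those of Arid1a and Smarcc1 were apart as well, 6 in all. Arid1b fell to 24.1, 24.1 and 26.3 CPM in ES siUbc9, against 35.9, 42.6 and 37.6 CPM in ES siCtrl (log2 -0.59 ± 0.08, adjusted p = 0.000425). Smarcd3 fell to 2.23, 2.05 and 2.12 CPM in ES siUbc9, against 2.96, 3.51 and 2.94 CPM in ES siCtrl (log2 -0.52 ± 0.13, adjusted p = 0.0116), from counts as low as 37. Its call was lost without ES siUbc9 replicate 2 (adjusted p = 0.0622).

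Arid1a was at 232, 287 and 285 CPM in ES siUbc9, against 300.1, 555 and 394 CPM in ES siCtrl (log2 -0.60 ± 0.20, adjusted p = 0.0406). Of the 6 fits that left out a library, the call held only in the one without ES siCtrl replicate 1, and DESeq2 did not make it (adjusted p = 0.0898). The libraries were apart on the scaling over all 28 and overlapped when the ES libraries were scaled alone. Actl6a was at 258, 242 and 238 CPM in ES siUbc9, against 314, 269 and 292 CPM in ES siCtrl (log2 -0.20 ± 0.06, adjusted p = 0.0314), and its call was lost without ES siCtrl replicate 1 or 3 or ES siUbc9 replicate 2 or 3. The count of called members fell to 2 without ES siUbc9 replicate 2 and to 3 without ES siUbc9 replicate 3 or ES siCtrl replicate 3. Over all genes these fits called 5176, 5416 and 5455, instead of 6986. Smarca4, Smarcc1, Smarcc2, Smarcd1 and Smarcd2 had log2 fold changes between -0.13 and 0.04 and did not pass. Smarcc1, Smarcc2 and Smarcd1 were called lower without ES siCtrl replicate 1 (adjusted p = 0.0487, 0.0372 and 0.0464). Smarca4, Smarcc1 and Smarcd1, subunits of the ES assembly, stood at 431 to 441, 377 to 389 and 129.7 to 138 CPM in ES siUbc9, against 435 to 489, 391 to 482 and 134.5 to 165 CPM in ES siCtrl. Pluripotency markers, which summed to 2710 to 3082 CPM in ES siUbc9 and 3251 to 3489 CPM in ES siCtrl, also fell in 4 of 8 cases, and their relation to the BAF genes was not tested.

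Whether the response itself differed between states was tested as an interaction. Between D4 and MEF, 7 members responded differently, 1 with a higher and 6 with a lower response at D4, against 36.6% of all genes tested, 17.0% higher and 19.6% lower. Smarcc2 had the widest gap, with a response lower by 0.95 ± 0.10 on the log2 scale at D4 than in MEF (adjusted p = 1.997e-05). Smarca2, Smarcd3 and Arid1b followed with gaps of -0.64, -0.68 and -0.60, and Actl6a had one of 0.38 (adjusted p = 0.00485; 0.34 and adjusted p = 0.0641 with the replicate number as a block). The gaps of Smarcd1 (-0.31) and Smarca4 (-0.27) passed with adjusted p = 0.0449 and 0.0361. They were lost in 8 and 9 of the 11 fits that left out 1 library, and with the block (adjusted p = 0.225 and 0.171).

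Between D7 and D4 no member's response differed (edgeR, and 0 by DESeq2), where 12.3% of all genes tested did, 6.04% higher and 6.24% lower. An unadjusted edgeR p under 0.05 was found for 0 members and for 4722 of the 17676 genes tested. Between ES cells and D7, 3 members passed, 2 with a higher and 1 with a lower response in ES cells, against 44.3% of all genes tested, 20.1% higher and 24.3% lower. The response of Smarca2 was higher by 1.43 ± 0.11 in ES cells than at D7 (adjusted p = 2.09e-07), rising in one and falling in the other. That of Smarcc2 was higher by 0.82 ± 0.11 (adjusted p = 2.74e-05). For Actl6a the difference, ES cells minus D7, was -0.74 ± 0.11 (adjusted p = 6.05e-05), with a fall in ES cells and a rise at D7. None of these 3 calls was lost when any 1 of the 12 libraries was left out. Arid1b and Smarcd3 fell in both states, and the differences between their responses were 0.04 ± 0.17 and -0.01 ± 0.15. Between ES and iPS cells no member's response passed, where 1.37% of all genes tested did (edgeR, and 0 members by DESeq2). There 0 members and 2148 of the 19186 genes tested had an unadjusted edgeR p under 0.05.

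**Figure D3:**
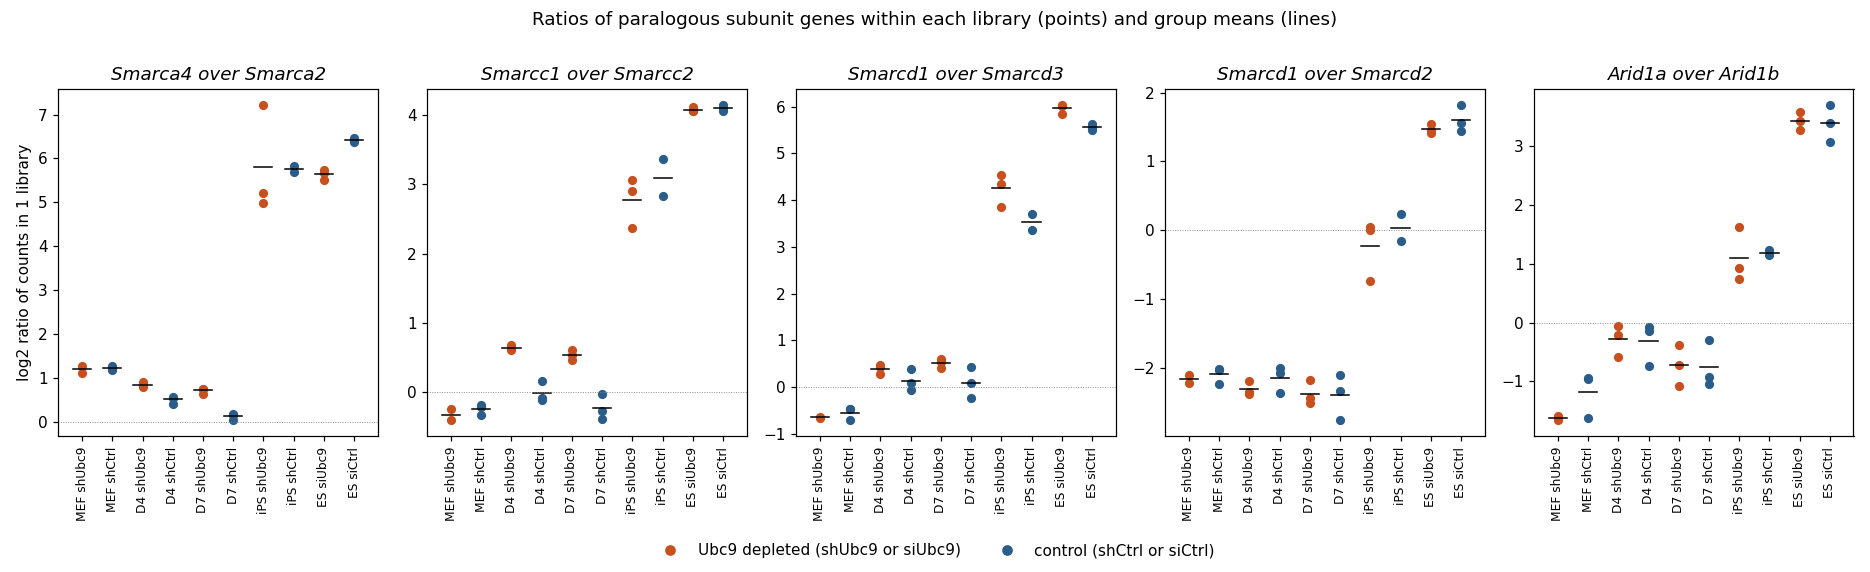
Log2 ratio of the counts of exchangeable subunits within each library (points) with the group mean (line), 1 panel per pair, groups from MEF to ES cells with the Ubc9-depleted group left of its control. The ratios are highest in iPS and ES cells, and those of Smarca4 over Smarca2 and Smarcc1 over Smarcc2 lie higher in the depleted libraries at D4 and D7.

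Because alternative subunits share a position in the complex, their RNA was compared by the ratio of counts within a library, without any scaling between libraries. The make-up of the complex itself was not measured. A count of 0.5 was added to each, and since transcript lengths differ only changes of a ratio between groups are read. With at most 3 libraries against 3, a two-sided exact permutation test cannot go below p = 0.1, so the ratios are described. The log2 ratio of Smarca4 over Smarca2 averaged 1.22 ± 0.05 in MEF shCtrl, 0.51 ± 0.09 in D4 shCtrl and 0.13 ± 0.08 in D7 shCtrl, and then 5.75 ± 0.09 in iPS shCtrl (SD, n = 3, 3, 3 and 2), with 6.42 ± 0.05 in ES siCtrl (n = 3). The ratio thus moved away from its pluripotent value through D7 and lay far above its fibroblast value in iPS cells.

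On Ubc9 depletion this ratio was 0.85 ± 0.06 in D4 shUbc9, against 0.51 ± 0.09 in D4 shCtrl, and 0.72 ± 0.06 in D7 shUbc9, against 0.13 ± 0.08 in D7 shCtrl (SD, n = 3 each). In ES cells it was 5.64 ± 0.13 in ES siUbc9, against 6.42 ± 0.05 in ES siCtrl. No library overlapped in these 3 cases, while in MEF the groups overlapped at 1.20 ± 0.12 in MEF shUbc9 (n = 2) and 1.22 ± 0.05 in MEF shCtrl (n = 3). Smarcc1 over Smarcc2 was 0.63 ± 0.04 in D4 shUbc9, against -0.02 ± 0.15 in D4 shCtrl, and 0.53 ± 0.07 in D7 shUbc9, against -0.24 ± 0.19 in D7 shCtrl, again without overlap. In ES cells it was 4.08 ± 0.03 in ES siUbc9 and 4.10 ± 0.05 in ES siCtrl, which overlap.

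Smarcd1 over Smarcd3 was 5.96 ± 0.11 in ES siUbc9, against 5.56 ± 0.06 in ES siCtrl, and 4.25 ± 0.35 in the libraries labelled iPS shUbc9, against 3.53 ± 0.24 in iPS shCtrl, without overlap in either. The iPS groups hold only 3 and 2 libraries. Their nearest values were 3.86 in the shallow iPS shUbc9 replicate 2 and 3.70 in iPS shCtrl, and neither gene was called there. At D4 and D7 the groups of this ratio overlapped. Smarcd1 over Smarcd2 and Arid1a over Arid1b overlapped between depleted and control libraries in all 5 states. Arid1a over Arid1b set ES and iPS cells apart, at 1.19 ± 0.06 in iPS shCtrl and 3.38 ± 0.32 in ES siCtrl, against -1.17 ± 0.39 in MEF shCtrl.

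**Figure D4:**
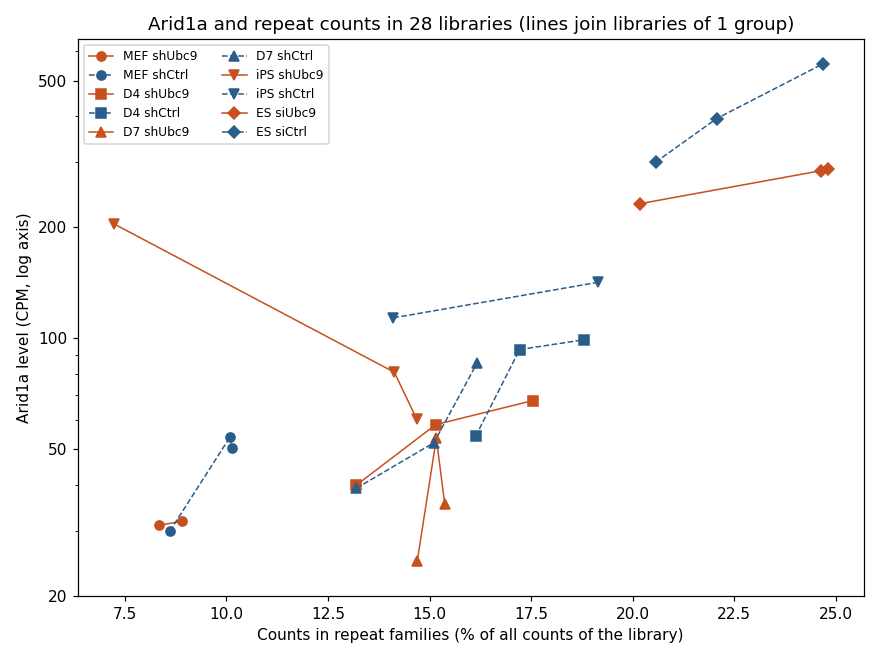
Level of Arid1a (CPM, log axis) against the share of each library's counts that fell in repeat families (% of all counts), 1 point per library with lines joining libraries of 1 group. Within most groups Arid1a is higher in libraries with more repeat counts; the libraries labelled iPS shUbc9 run the other way.

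Arid1a needs a separate account, because its replicates disagreed. The standard deviation of log2 CPM within groups, pooled over the 10 groups, was 0.51 for Arid1a and 0.12 to 0.35 for the other 9 members. The library with the highest Arid1a also had the highest share of repeat counts in 7 of 10 groups, and the one with the lowest had the lowest share in 9. In ES siCtrl, for example, Arid1a stood at 300.1, 394 and 555 CPM in libraries with 20.6%, 22.1% and 24.7% of counts in repeats. For the other members the highest libraries coincided in 0 (Actl6a) to 6 (Smarca2 and Smarcc1) of the 10 groups, and the lowest in 1 (Smarcd3 and Actl6a) to 8 (Arid1b), with 7 for Smarcc1 and Smarcd1. With the repeat share as a covariate, a setting chosen after this was seen, the log2 fold change of Arid1a on depletion was 0.06 in MEF, -0.17 at D4, -0.73 at D7 and -0.66 in ES cells (adjusted p = 0.836, 0.401, 0.0171 and 0.00124). At D4 that fit also lost the calls of Smarcc1 and Smarca4 (adjusted p = 0.113 and 0.110), and kept those of the other 7 members called there. Over all genes it called 8171 at D4 instead of 9051. The share of repeat counts also differed between control states. It was 8.60% to 10.1% in MEF shCtrl, 16.1% to 18.8% in D4 shCtrl and 13.2% to 16.2% in D7 shCtrl. In iPS shCtrl it was 19.2% and 14.1%, and in ES siCtrl 20.6% to 24.7%. The part of the repeat share in the spread of Arid1a was not tested further. Its part in the differences of Arid1a between control states was not tested.

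Of 20 other genes of BAF and its relatives PBAF and GBAF, chosen by function, 18 or 19 were tested in each depletion comparison. At D4 12 fell and 1 rose of 19, where 53.2% of all genes were called, with a median log2 fold change of -0.26 against -0.01 over all genes tested. At D7 5 fell and 1 rose of 19, where 53.6% of all genes were called, with a median of -0.31 against 0.01. In ES cells 3 fell and none rose of 19, where 39.1% of all genes were called, with a median of -0.07 against 0.01. In MEF and iPS cells none was called, and no gene of this list was called in 3 or more of the 5 comparisons. Dpf2, a PHD finger subunit that reads modified histone H3, fell by 0.53 at D4 and by 0.49 at D7 on the log2 scale (adjusted p = 0.000319 and 0.000631). Bcl7a, a small accessory subunit, fell by 0.57 at D4 and by 0.67 in ES cells (adjusted p = 0.00052 and 0.000349). Bicral, which belongs to GBAF, fell by 0.88 in ES cells (adjusted p = 4.44e-06). Ss18, a subunit of BAF and GBAF known from its gene fusion in human synovial sarcoma, rose by 0.31 at D7 (adjusted p = 0.00347). Bcl11b and Phf10, with log2 fold changes of 0.29 and -0.17 in MEF, had the smallest p of the list there and did not pass. Neither did Bcl11b and Bcl7a, at -0.81 and -0.52 in the iPS comparison.

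Among 20 ATPases and helicases of other remodeler families, such as CHD, ISWI and INO80, 11 fell and 5 rose at D4, 10 fell and 4 rose at D7, and 7 fell and 2 rose in ES cells, where 53.2%, 53.6% and 39.1% of all genes were called. Their medians were -0.23, -0.21 and -0.10, against -0.01, 0.01 and 0.01 over all genes. None was called in MEF or iPS cells, and none in 4 or more of the 5 comparisons. All 3 lists were written with earlier results of these data known.

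Across the 28 libraries the members fell into 2 sets by Pearson's r of log2 CPM. The 10 pairs among Smarca4, Smarcc1, Smarcd1, Arid1a and Actl6a had r of 0.74 to 0.96, the 10 pairs among Smarca2, Smarcc2, Smarcd2, Smarcd3 and Arid1b had r of 0.60 to 0.96, and the 25 pairs across the sets had r of -0.98 to -0.37. The libraries fall into fibroblast-derived and pluripotent clusters, so r covers the differences between these clusters as well as those within them. It is given as a description. Of 13696 named genes averaging 1 CPM or more over the libraries, the one most like each member was Phrf1, a PHD and RING finger protein, for Smarca4 (r = 0.98), Gria3, a glutamate receptor subunit, for Smarca2 (0.99), Hnrnpd, an RNA-binding protein, for Smarcc1 (0.99) and Dcaf5, a ubiquitin ligase adaptor, for Smarcc2 (0.99). For Smarcd1, Smarcd2 and Smarcd3 they were the splicing factor Sf3a1 (0.99), the peptidase Dnpep (0.98) and the membrane protein Pmepa1 (0.98). For Arid1a, Arid1b and Actl6a they were the zinc finger gene Pogz (0.98), the basement membrane gene Nid1 (0.98) and the deadenylase complex gene Cnot10 (0.995).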

How the data were processed

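RNA from 28 libraries in 10 groups was analysed. Per the labels' protocols, libraries were made from total RNA after removal of ribosomal RNA with a stranded kit. The authors deposited 1 table of raw read counts per gene (Entrez identifier) or repeat family, with no normalization, per the file headers. Build mm9 and the tools featureCounts, STAR 2.5.0a and DESeq2 appear in the submitters' processing notes. The strand setting, the treatment of reads mapping to several places and the annotation are not stated in the labels or file headers (not given in the sources used here). All 28 columns were matched to samples, and 0 were left over. Symbols came from a name table of GRCm38 (24191 of 26301 identifiers matched), and gene coordinates were not printed because the builds differ. The level of the depleted gene itself is not reported here. The 32 peak lists and the ATAC-seq samples were not used here.

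The tests used edgeR 4.0.16 on limma 3.58.1 under R 4.3.3. The filter on low counts was filterByExpr (minimum count 10), applied per comparison, and libraries were scaled by TMM and tested two-sided by edgeR's quasi-likelihood test with the 2 groups concerned, or 4 for a difference between responses. P-values were adjusted by Benjamini-Hochberg over all genes tested, with a threshold of 0.05. Repeat families did not enter the fits. Standard errors (SE) are those of the fitted log2 fold change. Levels are CPM by TMM over all 28 libraries, overlap of a single gene is read on these levels, counts of genes whose libraries do not overlap use each comparison's own scaling, and log2 CPM used a prior count of 2. The test was tried on simulated data first. DESeq2 1.42.0, library sizes alone, RLE factors, no filter, a fit of all 28 libraries, a replicate block and leaving out each library were run as alternatives, and the repeat share of each library as a covariate was added after seeing the data. Depth limits precision most in replicate 2 of the libraries labelled iPS shUbc9 (11365908 gene counts).

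Libraries with the same replicate number deviated together between D4 shCtrl and MEF shCtrl (correlations of 0.16 to 0.43 in 3 pairs), where the fit with the number as a block called the same 7 members; in the other comparisons they did not in every pair.

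The 10 members, the other lists and the rule for named genes were chosen with earlier results of these data known. Named were all members in every comparison, other BAF genes called in at least 3 of the 5 depletion comparisons or among the 2 with the smallest p in one, other remodelers called in at least 4, and for each member the gene with the highest Pearson r.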

Additional observations from a re-analysis of the deposited data

Results flagged for a closer look

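The response to Ubc9 depletion differed between cell states, by a test of the difference itself, for 7 members between D4 and MEF and for 3 between ES cells and D7. Each difference is the log2 fold change on depletion in the first state minus that in the second, from edgeR's quasi-likelihood test.

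Between D4 and MEF, Smarcc2 differed by -0.95 (adjusted p = 1.997e-05), with -0.90 at D4 and 0.03 in MEF. Smarcd3 differed by -0.68 (adjusted p = 0.000771), with -0.62 at D4 and 0.03 in MEF. Smarca2 differed by -0.64 (adjusted p = 0.000437), with -0.56 at D4 and 0.06 in MEF. Arid1b differed by -0.60 (adjusted p = 0.00242), with -0.61 at D4 and -0.02 in MEF. Actl6a differed by 0.38 (adjusted p = 0.00485), with 0.43 at D4 and 0.04 in MEF, and was not called with the replicate number as a block (adjusted p = 0.0641). Smarcd1 and Smarca4 differed by -0.31 and -0.27 (adjusted p = 0.0449 and 0.0361), and were not called with the block (adjusted p = 0.225 and 0.171), without the filter on low counts (0.108 and 0.0981) or with library sizes alone (0.219 and 0.238). The MEF comparison rests on 2 depleted libraries.

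Between ES cells and D7, Smarca2 differed by 1.43 (adjusted p = 2.09e-07), with 0.75 in ES cells and -0.74 at D7. Smarcc2 differed by 0.82 (adjusted p = 2.74e-05), with -0.10 in ES cells and -0.98 at D7. Actl6a differed by -0.74 (adjusted p = 6.05e-05), with -0.20 in ES cells and 0.48 at D7. Small interfering RNA was used in ES cells and a hairpin at D7, so cell state and way of depletion cannot be told apart.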

How the results depend on the processing

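No called value of a member changed sign under any alternative: of 779 alternative values of the 61 called results, 688 stayed called and 91 did not, 57 of these where 1 library was left out. The number of called members moved by more than 1.5 times as follows. In MEF it was 1 (Arid1a) instead of 0 with library sizes alone (adjusted p = 0.033) and with a replicate block (adjusted p = 3.15e-13), and 0 to 1 on leaving out a library. MEF shUbc9 has no replicate 2, so the block gave MEF shCtrl replicate 2 no weight in the fold change. The block is thus no separate check there (Arid1a log2 -0.76, and -0.75 without that library). With all 28 libraries in 1 fit the number of called members was 4 instead of 9 at D4, 2 instead of 5 in ES cells and 2 instead of 7 between D4 and MEF. It was 1 (library sizes alone) and 4 (replicate block) instead of 0 between D7 and D4. For the response difference of D4 and MEF the replicate block gave 4 instead of 7, without Smarca4, Smarcd1 and Actl6a (adjusted p = 0.171, 0.225 and 0.0641). Leaving out a library gave 6 to 9 members at D4, 5 to 7 at D7, 2 to 7 in ES cells, 4 to 8 between D4 and MEF, 3 to 9 between iPS and ES cells, 8 to 9 between iPS cells and D7, 5 to 8 for D4 minus MEF and 3 for ES minus D7. Calls over all genes moved as well on leaving out a library. They were 7281 to 8937 instead of 9051 at D4, and 6998 to 9125 instead of 9223 at D7. In ES cells they were 5176 to 7582 instead of 6986, and between D4 and MEF 10011 to 11369 instead of 11152. The cause of these moves was not tested.

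Outside D4 against MEF, libraries with the same replicate number did not deviate together in every pair. Their correlations ran from -0.08 to 0.50 between D7 and D4 and from 0.04 to 0.20 for ES depletion. Whether the numbers pair libraries in these comparisons is not settled. A library whose number was absent from the other group carried no weight in the block's fold change. This holds in every comparison with MEF shUbc9 or iPS shCtrl. Besides that of Arid1a in MEF depletion, the block changed these calls. On depletion at D4 Smarca4, Smarcc1 and Smarcd2 were lost. Between D7 and D4 Smarca2, Smarca4, Smarcd1 and Arid1a were gained. Between iPS cells and D7 Smarca4 was lost, and between iPS and ES cells Smarca2 and Arid1b were lost. Over all genes, MEF depletion called 984 genes and 37, 1868 and 501 with all 28 libraries, the block and the repeat share, and 266 to 1717 with a library left out. With all 28 libraries D4, D7, ES and iPS depletion called 4190, 6127, 2907 and 811 genes instead of 9051, 9223, 6986 and 0. In the iPS comparison DESeq2 called 7, RLE factors 1, no filter 5 and the block 81, against 0. Between D4 and MEF all 28 libraries gave 6873 instead of 11152, and between D7 and D4 they gave 979 and the block 4608 instead of 3057 (1669 to 2955 with a library left out). The block gave 3596 instead of 6497 for D4 minus MEF, 1019 instead of 2171 for D7 minus D4 (1386 to 2866 with a library left out) and 495 instead of 262 for ES minus iPS, where DESeq2 gave 851 and leaving out a library 74 to 1518. Library sizes alone moved the share of called genes that were higher to 52.1% from 63.4% in MEF depletion, to 62.2% from 49.8% between D4 and MEF, to 39.4% from 58.0% between D7 and D4, and in the response differences to 62.2% from 46.4% (D4 minus MEF), 72.9% from 49.2% (D7 minus D4) and 32.4% from 45.2% (ES minus D7). Paralog ratios moved by less than 1 SD with an added count of 2. Leaving out a library cannot shift the mean of groups this small by 1 SD, so that setting does not test the ratios.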

Other observations

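The fit with the repeat share of each library as a covariate, chosen after the data were seen, called 7 members at D7 instead of 5, Arid1a and Smarcc1 being the additions (log2 -0.73 and -0.26, adjusted p = 0.0171 and 0.0157). Over all genes that fit called 10020 at D7 instead of 9223. In ES cells it called the same number of members, 5, as without the covariate, and 8961 genes instead of 6986.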
